A study of Mus musculus with 12 samples.

Results

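Amino acid transporters at the plasma membrane set how much leucine, glutamine, arginine, cystine and serine a dividing cell can take up. The 10 transporter genes described here, *Slc7a5*, *Slc3a2*, *Slc7a6*, *Slc7a11*, *Slc7a1*, *Slc1a5*, *Slc1a4*, *Slc38a1*, *Slc38a2* and *Slc43a1*, were listed by name as known transporters, with earlier results of these data known. All 10 were found among the 41444 genes of the deposited expression table. They were compared between control and LY2090314-treated BCR-ABL1-transformed mouse pre-B leukaemia (B-ALL) cells. LY2090314 is a small-molecule inhibitor of GSK3β, the kinase that marks β-catenin for degradation.

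The series holds 12 samples in 4 groups of 3, of which the 2 groups that express the ERT2 vector without Cre were used. The cells came from bone marrow of *Ctnnb1* fl/fl mice, whose β-catenin gene is flanked by loxP sites for removal by Cre, and were transformed with a BCR-ABL1 retrovirus. Both groups therefore carried the floxed allele, BCR-ABL1 and ERT2, both kept β-catenin, and both received 1 µM 4-OHT, the tamoxifen metabolite that activates ERT2 fusion proteins, for 2 days. The treated group also received 40 nM LY2090314, for 1 day by the sample labels and for a shorter time by the legend of the study. Control cells received no LY2090314. The legend of the study describes the 3 samples of a group as biological replicates from 3 mice, whereas the labels do not say which animal or culture each sample came from. The column names of treated samples 1 and 2 open with the same number and that of treated sample 3 with another. Those of treated samples 1 and 2 also hold the letters A and B. What the number and the letters stand for is not given.

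Polyadenylated RNA was sequenced. Levels are given as rlog values, a log2 scale that corrects for library size and pulls sparsely sequenced genes towards their average over the samples, so differences of such genes come out too small. Depth is unknown because no counts were used here, and no counting interval can be given. A difference of 1 is a change of a factor of 2 on the linear scale. Genes with a mean rlog value of at least 3 over the 6 samples were tested with limma, and a gene was called changed at a Benjamini-Hochberg adjusted p under 0.05 over all 11536 genes tested. By this rule 50.1% of all genes tested were called, 24.8% higher and 25.3% lower in treated cells, with a median log2 difference of 0.01. Exact two-sided permutation tests of 3 against 3 samples cannot go below 0.10 and were at that value for each member whose groups did not overlap.

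In the same samples *Myc*, which encodes a transcription factor that drives growth and nutrient uptake, fell from 11.79 ± 0.042 to 9.15 ± 0.017 (SD, n = 3), a log2 difference of -2.64 (adjusted p = 1.9e-08, limma). *Ctnnb1*, which encodes β-catenin, differed by -0.35 (adjusted p = 0.00030, limma). The labelled B-lineage identity was checked against 9 markers, all of which were expressed, with values between 5.73 and 14.47 in the 6 samples. Of these 9 markers 8 were called lower in treated cells, beside 25.3% of all genes tested. The other, *Cd79a*, lay higher in every treated sample than in any control sample, but its difference of 0.23 did not pass the test (adjusted p = 0.053, limma). The summed level of the list was 16.26 to 16.29 in control and 15.64 to 15.79 in treated samples on the log2 scale. None of 8 T and NK cell markers reached the lower limit. Of 8 myeloid markers 2 did, *Lyz2* and *Ly6g*, which were higher in treated cells (summed level of the list 6.11 to 6.29 against 7.41 to 7.47), while *Mpo*, *Elane* and *S100a8* were listed at 0. Of 6 stromal and endothelial markers 1 did, *Pecam1*, which made up almost all of the summed level (10.47 to 10.55 against 11.61 to 11.78). *Col1a2* and *Cxcl12* were listed at 0, so the shift of this list is that of 1 gene. Of 6 erythroid markers 1 reached the limit, *Hbb-bt*, which was lower (summed level 4.42 to 4.46 against 4.14 to 4.17), with *Hba-a1* and *Hba-a2* listed at 0. The part of these shifts in the transporter results was not tested. In such bulk samples, fewer cells of a type and less RNA per cell cannot be told apart.

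Mammalian cells import large neutral amino acids mainly through heteromeric transporters, in which a light chain of the SLC7 family (LAT1, y+LAT2 or xCT) carries the substrate and the CD98 heavy chain, SLC3A2, brings it to the cell surface. CAT1 imports arginine and lysine, ASCT1 and ASCT2 exchange small neutral amino acids and glutamine, SNAT1 and SNAT2 import glutamine and alanine together with sodium, and LAT3 lets branched-chain amino acids pass by facilitated diffusion. Leucine and arginine that enter by these routes are signalled by sensor proteins to the mTORC1 kinase complex at the lysosome. Several of the genes are known targets of MYC or, when amino acids are short, of the transcription factor ATF4.

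Of the 10 transporters 9 were tested, and 6 of these 9 (66.7%) were called, against 50.1% of all genes. *Slc43a1* rose, *Slc7a5*, *Slc3a2*, *Slc7a6*, *Slc7a1* and *Slc1a4* fell, and *Slc1a5*, *Slc38a1* and *Slc38a2* did not pass the test. *Slc7a11* lay below the lower limit and was not tested. The median difference of the 9 was -0.16, beside 0.01 for all genes tested. In 6 of the 9 the treated and control values did not overlap, 1 with treated samples higher and 5 with treated samples lower, which was the case for 58.6% of all genes tested (29.1% higher and 29.5% lower). No member reached a log2 difference of 1 in either direction, whereas 6.01% of all genes tested were called and did so.

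**Figure D1:**
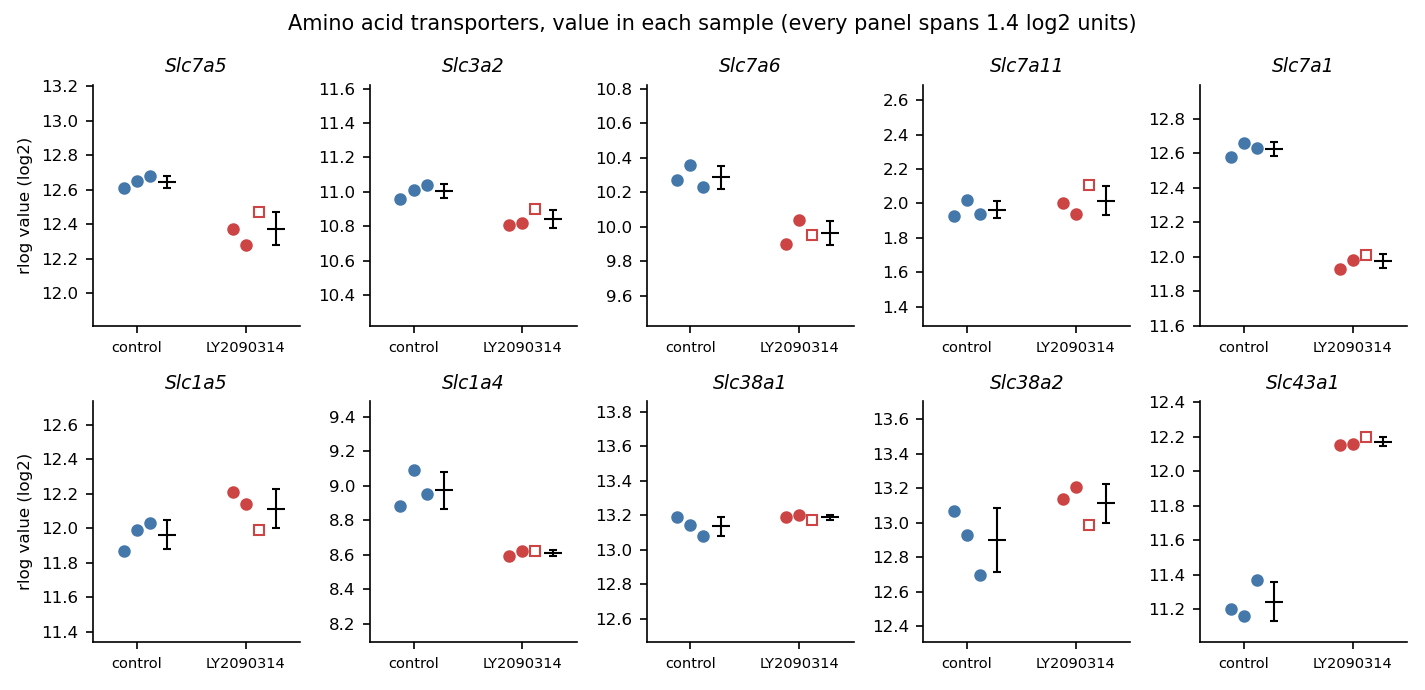
Rlog value (log2) of each of the 10 transporters in the 3 control (blue) and 3 LY2090314-treated (red) samples, with mean and SD in black. Every panel spans the same number of log2 units. The open square is treated sample 3, whose column name opens with another number than those of the other treated samples. *Slc43a1* lies higher and *Slc7a5*, *Slc3a2*, *Slc7a6*, *Slc7a1* and *Slc1a4* lie lower in every treated sample than in any control sample.

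The gene starts of 4 members are shown because they belong to the member that rose most (*Slc43a1*), the members that fell most (*Slc7a1* and *Slc1a4*) and the member near the lower end of the scale (*Slc7a11*). Each run covers 250 bases before and 50 bases after the gene start in RefSeq on GRCm38.p6, in the direction of the gene, and capitals mark matches to the motifs searched. These were CACGTG, the E-box bound by MYC and related factors, TGATGNAAN, the composite site of ATF4 and C/EBP factors known as CARE, and CTTTGAT, a core of sites bound by TCF factors, each on both strands. The TCF motif was added after the values had been seen.
*Slc43a1*, chr2:84840073-84840372, plus strand: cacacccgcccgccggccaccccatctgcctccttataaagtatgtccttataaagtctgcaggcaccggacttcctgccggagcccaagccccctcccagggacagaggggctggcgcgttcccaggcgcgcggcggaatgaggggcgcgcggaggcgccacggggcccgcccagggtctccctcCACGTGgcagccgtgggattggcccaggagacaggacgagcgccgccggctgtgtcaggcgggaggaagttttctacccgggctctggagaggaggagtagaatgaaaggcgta
*Slc7a1*, chr5:148399855-148400154, minus strand: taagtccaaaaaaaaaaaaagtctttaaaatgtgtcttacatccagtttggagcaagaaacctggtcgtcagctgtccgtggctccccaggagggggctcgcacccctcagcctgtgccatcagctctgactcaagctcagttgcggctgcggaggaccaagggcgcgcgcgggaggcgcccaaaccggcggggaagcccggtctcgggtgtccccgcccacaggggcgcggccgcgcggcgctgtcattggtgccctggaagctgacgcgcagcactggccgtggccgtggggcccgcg
*Slc1a4*, chr11:20332664-20332963, minus strand: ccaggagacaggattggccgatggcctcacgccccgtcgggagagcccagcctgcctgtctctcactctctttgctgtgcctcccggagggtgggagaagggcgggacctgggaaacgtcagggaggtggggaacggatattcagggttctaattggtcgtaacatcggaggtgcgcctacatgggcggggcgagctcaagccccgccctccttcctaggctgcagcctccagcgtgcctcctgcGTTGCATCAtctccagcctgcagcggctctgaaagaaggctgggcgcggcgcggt
*Slc7a11*, chr3:50443564-50443863, minus strand: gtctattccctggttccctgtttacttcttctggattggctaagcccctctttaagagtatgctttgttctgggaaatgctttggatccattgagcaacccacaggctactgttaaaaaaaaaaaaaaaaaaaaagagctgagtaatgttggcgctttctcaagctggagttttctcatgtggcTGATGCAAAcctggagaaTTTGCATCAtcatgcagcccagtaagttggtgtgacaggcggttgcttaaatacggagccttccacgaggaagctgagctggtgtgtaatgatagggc

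RefSeq windows were matched for 7 of the 10 members, 9 windows in all, and *Slc7a5*, *Slc1a5* and *Slc38a1* had none. The E-box occurred in 1 of the 9 windows, that of *Slc43a1*, 64 bases before the start, and in 10.3% of the 11041 windows of tested genes and 7.15% of all 32851 windows. CARE occurred in 2 of the 9, against 2.16% of the windows of tested genes and 3.95% of all. In *Slc1a4* the match began 5 bases before the start and ran across it. In *Slc7a11*, which was not among the tested genes, matches began at 2 places, 66 and 48 bases before the start. The TCF letters occurred in 1 of the 9, an alternative start of *Slc7a1* (chr5:148392766-148393065), against 2.52% and 3.73%. The main window of *Slc7a1* held none of the 3 motifs. These matches are letters in a window and not measured binding.

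*Slc7a5* (ENSMUSG00000040010, GRCm38 chromosome 8, 121881150 to 121907694, minus strand) encodes LAT1, the light chain that imports leucine and other large neutral amino acids. Its rlog values were 12.61, 12.65 and 12.68 in control and 12.37, 12.28 and 12.47 in treated samples. Every treated sample lay below every control sample, with treated sample 2 lowest. The mean fell by 0.27 on the log2 scale, from 12.65 ± 0.036 to 12.37 ± 0.099 (SD, n = 3), with a standard error of 0.060 (adjusted p = 0.0066, limma). The fall was a factor of 1.21 on the linear scale, and 21.4% of all genes tested fell by more.

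*Slc3a2* (ENSMUSG00000010095, chromosome 19, 8706882 to 8723369, minus strand) encodes CD98, the heavy chain that LAT1, y+LAT2 and xCT share. Control samples had rlog values of 10.96, 11.01 and 11.04, and treated samples 10.81, 10.82 and 10.90. The groups did not overlap, but treated sample 3 and control sample 1 were only a small step apart. The mean fell by 0.16, from 11.00 ± 0.038 to 10.84 ± 0.048, with a standard error of 0.048 (adjusted p = 0.025, limma). This was the weakest call among the members. It was lost when any of 4 samples was left out, with adjusted p between 0.065 without control sample 3 and 0.085 without treated sample 1 (0.083 without control sample 2 and 0.082 without treated sample 2), when treated samples 1 and 2 were counted as 1 sample (adjusted p = 0.080), and without the mean-variance trend (adjusted p = 0.051).

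Light and heavy chain kept nearly the same distance in all 3 control samples. Within a sample, the rlog value of *Slc7a5* minus that of *Slc3a2* was 1.65, 1.64 and 1.65 in control and 1.56, 1.45 and 1.58 in treated samples. The distance was smaller in each treated sample than in any control sample, by 0.11 on average, and was not tested.

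*Slc7a6* (ENSMUSG00000031904, chromosome 8, 106168857 to 106198706, plus strand) encodes y+LAT2, a CD98-linked light chain that exchanges arginine for neutral amino acids and sodium. Control samples had rlog values of 10.27, 10.36 and 10.23, and treated samples 9.90, 10.04 and 9.95. The groups did not overlap, and the spread within them was alike. The mean fell by 0.32, from 10.29 ± 0.069 to 9.96 ± 0.072, with a standard error of 0.060 (adjusted p = 0.0029, limma).

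*Slc7a11* (ENSMUSG00000027737, chromosome 3, 49892526 to 50443614, minus strand) encodes xCT, the light chain that imports cystine in exchange for glutamate. Its rlog values were 1.93, 2.02 and 1.94 in control and 2.00, 1.94 and 2.11 in treated samples. The groups overlapped and the level was under the limit for testing in both. Without a lower limit the difference was 0.05 (adjusted p = 0.55, limma). At such low rlog values differences are drawn towards 0 by the transformation, so a change of this gene could have been missed here.

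*Slc7a1* (ENSMUSG00000041313, chromosome 5, 148327410 to 148399904, minus strand) encodes CAT1, a main importer of arginine and lysine, and had the largest fall of the 9 tested members. The control samples lay at rlog values of 12.58, 12.66 and 12.63 and the treated samples at 11.93, 11.98 and 12.01. The samples of a group lay close together and the gap between the groups was much wider than either. The mean fell by 0.65, from 12.62 ± 0.042 to 11.97 ± 0.042, with a standard error of 0.048 (adjusted p = 2.1e-05, limma). The fall was a factor of 1.57 on the linear scale, and 5.49% of all genes tested fell by more.

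The ASC-type exchangers, which are close relatives, had differences of opposite sign. *Slc1a4* (ENSMUSG00000020142, chromosome 11, 20302180 to 20332713, minus strand) encodes ASCT1, an exchanger of alanine, serine and cysteine. In control samples its rlog values were 8.88, 9.09 and 8.95, and in treated samples 8.59, 8.62 and 8.62. All 3 treated samples lay below all 3 control samples and within a narrow range. The mean fell by 0.36, from 8.97 ± 0.11 to 8.61 ± 0.016, with a standard error of 0.072 (adjusted p = 0.0039, limma).

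*Slc1a5* (ENSMUSG00000001918, chromosome 7, 16781340 to 16798274, plus strand) encodes ASCT2, a main route of glutamine uptake in dividing cells. Its rlog values were 11.87, 11.99 and 12.03 in control and 12.21, 12.14 and 11.99 in treated samples. Treated sample 3 lay within the range of the control samples, whereas treated samples 1 and 2 lay above it. The difference of 0.15 did not pass the test (adjusted p = 0.11, limma), with means of 11.96 ± 0.080 and 12.11 ± 0.11. Without treated sample 3 it was 0.21 and passed (adjusted p = 0.018, limma). Within a sample, the rlog value of *Slc1a5* minus that of *Slc1a4* was 2.99 ± 0.093 in control and 3.51 ± 0.13 in treated cells, without overlap.

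The sodium-coupled SNAT transporters, whose genes lie close together on chromosome 15, did not pass the test. *Slc38a1* (ENSMUSG00000023169, 96571418 to 96642913, minus strand), which encodes SNAT1, had rlog values of 13.19, 13.14 and 13.08 in control and 13.19, 13.20 and 13.17 in treated samples. The groups overlapped, with a difference of 0.05 (standard error 0.050, adjusted p = 0.45, limma).

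*Slc38a2* (ENSMUSG00000022462, 96687392 to 96699730, minus strand) encodes SNAT2, which cells are known to raise when amino acids are short. It had rlog values of 13.07, 12.93 and 12.70 in control and 13.14, 13.21 and 12.99 in treated samples. The control samples of this gene were the most spread out of any member (SD 0.18), and control sample 1 lay above treated sample 3. The difference of 0.21 did not pass the test (means 12.90 ± 0.18 and 13.11 ± 0.11, adjusted p = 0.11, limma). Without control sample 1 it was 0.30 and passed (adjusted p = 0.044, limma).

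*Slc43a1* (ENSMUSG00000027075, chromosome 2, 84838850 to 84863594, plus strand) encodes LAT3, a sodium-independent facilitated transporter of leucine, isoleucine, valine and phenylalanine that needs no heavy chain. Among the members it alone was called higher. Its rlog values were 11.20, 11.16 and 11.37 in control and 12.15, 12.16 and 12.20 in treated samples. The 3 treated values were almost alike, and all lay well above the highest control sample. The mean rose by 0.93, from 11.24 ± 0.11 to 12.17 ± 0.026, with a standard error of 0.062 (adjusted p = 1.3e-05, limma). The rise was a factor of 1.9 on the linear scale, and 4.74% of all genes tested rose by more.

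LAT3 and LAT1 carry overlapping substrates, and their transcripts moved in opposite directions. Within a sample, the rlog value of *Slc43a1* minus that of *Slc7a5* was -1.41, -1.49 and -1.31 in control and -0.22, -0.11 and -0.27 in treated samples. The groups did not overlap, and the mean moved by 1.20 on the log2 scale.

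Rlog values are not divided by gene length, so levels of different members were compared after subtracting the log2 of the exon length in kb. On this level per length *Slc7a5* was highest in control cells (10.76 ± 0.036), followed by *Slc1a5* (9.90) and *Slc38a2* (9.76), which overlapped. *Slc3a2* (9.18), *Slc7a1* (9.10), *Slc38a1* (9.03), *Slc43a1* (8.73), *Slc7a6* (8.10) and *Slc1a4* (7.0) came next, of which *Slc7a1* and *Slc38a1* overlapped. *Slc7a11* was last by a wide margin (-1.84).

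In treated cells *Slc7a5* was still highest (10.48), ahead of *Slc1a5* (10.05) and *Slc38a2* (9.97), which again overlapped. *Slc43a1* moved from place 7 to place 4 (9.66 ± 0.026), and *Slc7a1* from place 5 to place 7 (8.45 ± 0.042). *Slc38a1* (9.08) and *Slc3a2* (9.02) lay between them and overlapped. *Slc7a6* (7.77), *Slc1a4* (6.64) and *Slc7a11* (-1.78) kept their places. With the longest transcript as length in place of all exons, *Slc1a5* (10.62) and *Slc7a5* (10.56) overlapped at the top in treated cells, and *Slc43a1* (10.20) took place 5.

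**Figure D2:**
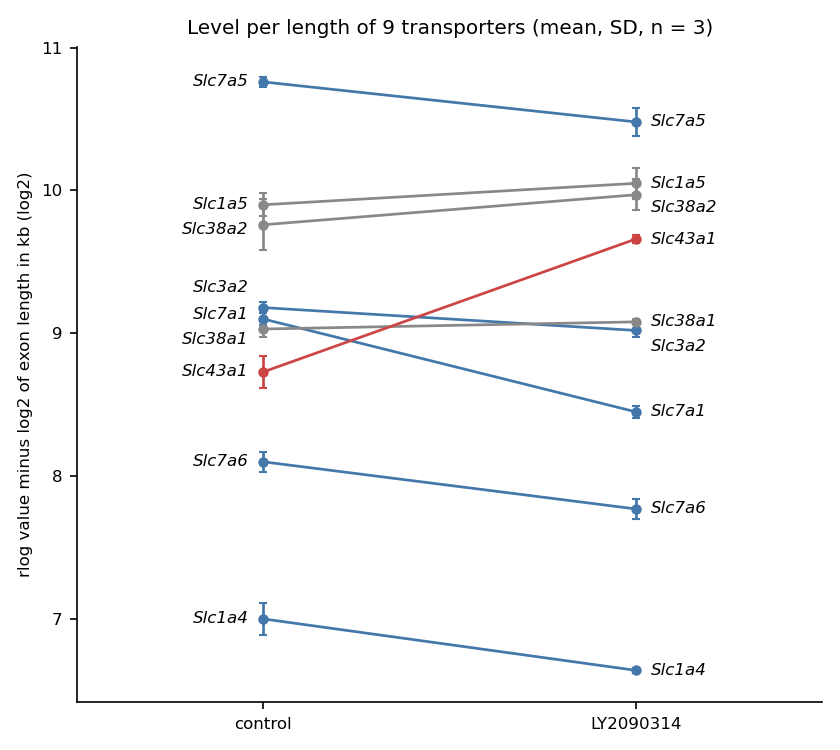
Level per length (rlog value minus log2 of exon length in kb) of 9 transporters in control and LY2090314-treated cells, mean and SD of 3 samples. Red and blue mark members called higher and lower and grey those not called. *Slc43a1* climbs from place 7 to place 4, *Slc7a1* drops from place 5 to place 7, and *Slc7a5* is highest in both groups. *Slc7a11* lies below the range drawn.

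Treated sample 3 differed from the mean of treated samples 1 and 2 by more than these 2 differed from each other for 7 of the 9 tested members. This held for 63.9% of all genes tested. The SD of the difference between a pair of samples over all genes tested was 0.186 for treated samples 1 and 2 and 0.253 for either against sample 3. Between control samples it was 0.185 to 0.239. Over the members, the largest difference between a pair of samples was 0.14 for treated samples 1 and 2, 0.22 for either against sample 3, and 0.21 to 0.37 between control samples.

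Further amino acid transporters, most of them known from the plasma membrane, were examined as a list of 35, without measuring where the proteins lie. Of these, 27 lay below the lower limit, 16 of them listed at 0, which left 8 tested, 3 called higher and 2 lower (62.5% called, beside 50.1% of all genes tested). *Slc6a19*, the sodium-coupled neutral amino acid transporter known from intestine and kidney, had rlog values of 4.59, 4.43 and 4.48 in control and 6.96, 7.10 and 6.87 in treated samples. The groups were far apart, and the difference of 2.48 (standard error 0.098, adjusted p = 8.6e-07, limma) was the largest of any tested gene of the transporter lists.

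*Slc36a4*, which belongs to the proton-assisted transporter family, rose by 1.01 (5.88 ± 0.12 to 6.88 ± 0.25, adjusted p = 0.00062, limma). *Slc38a10* rose by 0.19 (adjusted p = 0.0060). *Slc6a6*, the taurine transporter, fell by 0.32 (adjusted p = 0.0027), and *Slc43a2*, which encodes LAT4, the closest relative of LAT3, fell by 0.30 (10.25 ± 0.051 to 9.96 ± 0.11, adjusted p = 0.0074). LAT3 and LAT4 transcripts thus moved in opposite directions. *Slc38a10*, *Slc6a6* and *Slc43a2* share exon sequence with a gene on the other strand, and whether strand was used in counting is not given in the sources used here.

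**Figure D3:**
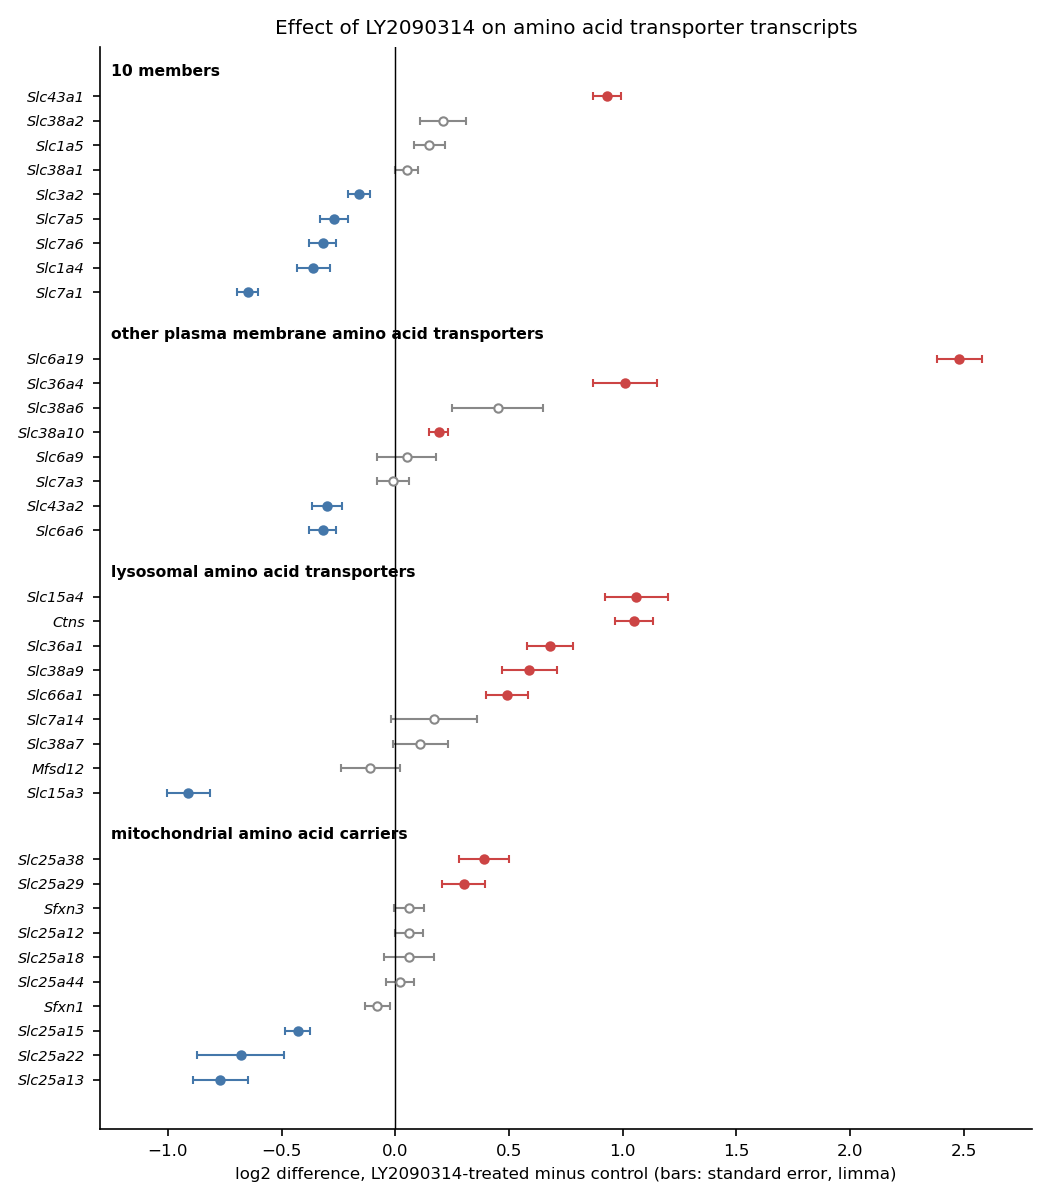
Log2 difference (LY2090314-treated minus control, with the standard error from limma) of the tested members and of 3 further lists of amino acid transporters. Filled red points were called higher, filled blue points lower, and open grey points were not called. *Slc43a1* is the only red point among the members, and *Slc6a19*, at 2.48, lies farthest from 0.

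Amino acids released by protein breakdown leave the lysosome through transporters of their own. A list of 10 genes of lysosomal amino acid transporters was examined, whatever the direction in which they carry. Of these 9 were tested, 5 rose, 1 fell and 3 did not pass, with a median difference of 0.49. Of all genes tested, 24.8% were called higher. The counts of 5 and 1 were the same in every alternative fit.

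*Slc15a4*, a transporter of histidine and peptides, had rlog values of 8.28, 8.51 and 8.38 in control and 9.61, 9.60 and 9.12 in treated samples. Treated sample 3 was the lowest of the treated group and still above all control samples (difference 1.06, standard error 0.14, adjusted p = 0.00044, limma). *Ctns*, which encodes cystinosin, the exporter of cystine, had rlog values of 6.88, 6.71 and 6.79 in control and 7.83, 7.91 and 7.80 in treated samples. The treated values lay close together (difference 1.05, standard error 0.084, adjusted p = 3.3e-05, limma).

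*Slc36a1*, a proton-coupled exporter of small amino acids, rose by 0.68 (adjusted p = 0.00088). *Slc38a9*, which exports leucine and glutamine and reports arginine to mTORC1, had rlog values of 7.70, 7.77 and 7.61 in control and 8.37, 8.47 and 8.01 in treated samples. It rose by 0.59 (standard error 0.12, adjusted p = 0.0056, limma), with treated sample 3 again lowest of its group. *Slc66a1*, an exporter of cationic amino acids, also rose, by 0.49 (adjusted p = 0.0031). *Slc15a3*, the relative of *Slc15a4*, moved the other way, with rlog values of 8.70, 8.71 and 8.87 in control and 7.81, 7.74 and 8.01 in treated samples (difference -0.91, adjusted p = 0.00013). *Mfsd12*, *Slc38a7* and *Slc7a14* did not pass the test. *Slc15a3* shares exon sequence with *Tmem132a*, *Slc15a4* with *Gm43474* and *Slc38a9* with *Gm47827*, in each case on the other strand.

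**Figure D4:**
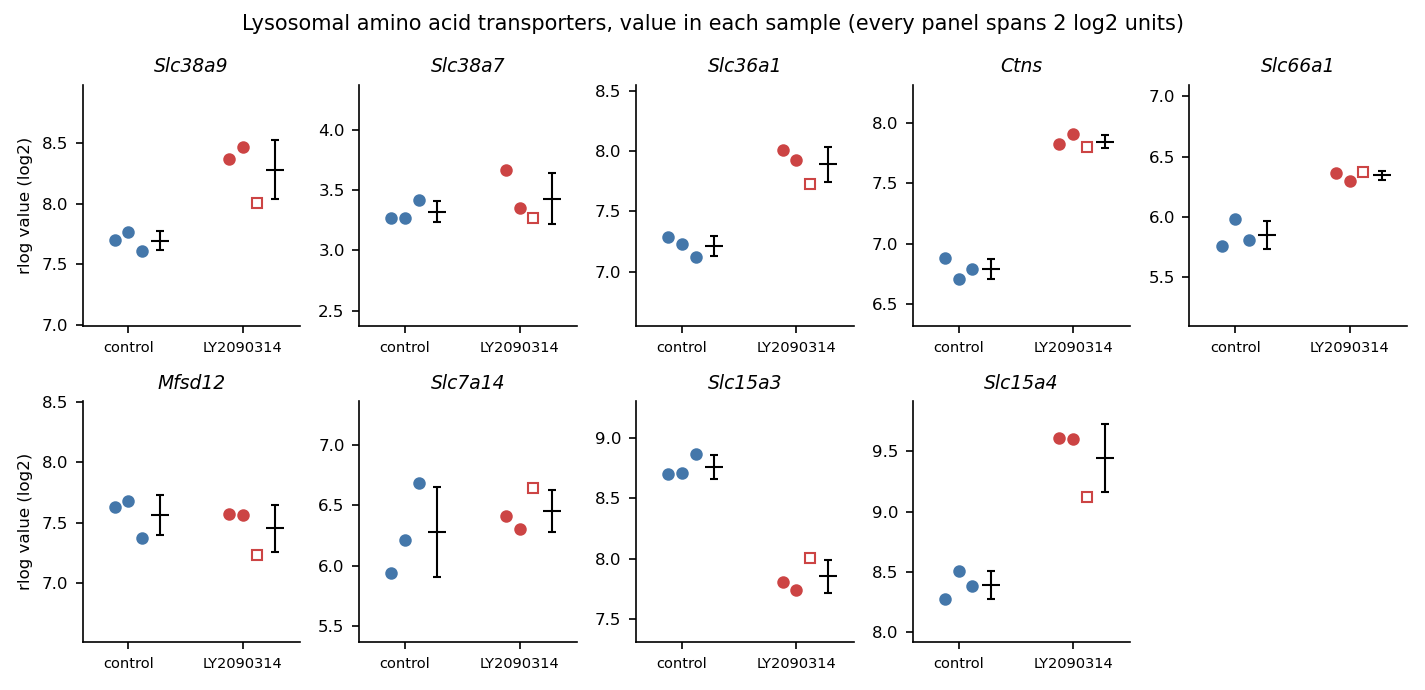
Rlog value (log2) of the 9 tested lysosomal amino acid transporters in the 3 control (blue) and 3 LY2090314-treated (red) samples, with mean and SD in black and treated sample 3 as an open square. The treated samples lie above all control samples for *Slc38a9*, *Slc36a1*, *Ctns*, *Slc66a1* and *Slc15a4*, and below them for *Slc15a3*.

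Of 10 tested carriers that take amino acids across the inner mitochondrial membrane 2 rose, 3 fell and 5 did not pass, with a median of 0.04. The share called, 50%, was that of all genes tested (50.1%). *Slc25a13*, an aspartate-glutamate exchanger, fell by 0.77 (adjusted p = 0.0011), *Slc25a22*, a glutamate carrier, by 0.68 (adjusted p = 0.018) and *Slc25a15*, the ornithine carrier, by 0.43 (adjusted p = 0.00041). *Slc25a38*, the glycine carrier, rose by 0.39 (adjusted p = 0.018) and *Slc25a29*, a carrier of basic amino acids, by 0.30 (adjusted p = 0.030). These rises were close to the threshold: without control sample 2, control sample 3 or treated sample 1, 0 carriers were called higher, and without control sample 1 or treated sample 2, 1 was.

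Cells short of amino acids are known to activate GCN2 and ATF4, which raise transporters such as *Slc7a11*, *Slc38a2*, *Slc7a5* and *Slc3a2*. Of 18 tested genes of this amino acid response 7 rose and 3 fell, 55.6% in all, close to the 50.1% of all genes tested, with a median of 0.08. *Atf4* itself had rlog values of 11.18, 11.22 and 11.08 in control and 11.36, 11.29 and 10.94 in treated samples. Treated sample 3 lay below and the other treated samples above all control samples, and the difference of 0.03 did not pass the test (adjusted p = 0.81, limma). Transcript levels do not show the translation of *Atf4*, by which the pathway is known to act.

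The genes of the list moved apart from each other. *Vldlr*, a lipoprotein receptor, rose from 4.80 ± 0.17 to 8.81 ± 0.17 (difference 4.01, adjusted p = 2.8e-07). *Stc2*, which encodes a secreted glycoprotein, rose by 1.64 (adjusted p = 0.00011) and *Ddit4*, whose product restrains mTORC1, by 1.18 (adjusted p = 2.9e-06). *Asns*, which encodes asparagine synthetase, fell by 0.36 (adjusted p = 0.014). *Eif4ebp1*, which encodes an mTORC1 substrate, fell by 0.55 (adjusted p = 0.0069), and *Cebpg* fell by 0.19 (adjusted p = 0.041). *Cebpg* shares exon sequence with *Gm44836* on the same strand and with *Gm45095* on the other strand. Without treated sample 1, 1 gene of the list was called lower in place of 3.

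Of 31 tested genes that sense amino acids or form the mTORC1 pathway, 10 rose and 10 fell (64.5% called, beside 50.1% of all genes tested, 24.8% higher and 25.3% lower), with a median of 0.11. *Mtor*, the kinase, had rlog values of 13.90, 13.88 and 13.82 in control and 14.52, 14.59 and 14.53 in treated samples, well apart (difference 0.68, standard error 0.057, adjusted p = 4.3e-05, limma). *Rragd*, a GTPase that recruits mTORC1 to the lysosome, rose by 1.06 (adjusted p = 1.3e-05) and *Castor2*, a relative of the arginine sensor, by 0.83 (adjusted p = 0.00031). *Seh1l* and *Mios*, subunits of GATOR2, which relays the amino acid signal, fell by 0.48 (adjusted p = 0.00031) and 0.40 (adjusted p = 0.00022). *Deptor*, an inhibitor of mTOR, fell by 0.48 (adjusted p = 0.0027). *Seh1l* and *Deptor* each share exon sequence with a gene on the other strand. Without control sample 1 or without treated sample 2, 6 genes of the list were called higher in place of 10, and 7 lower in both cases.

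**Figure D5:**
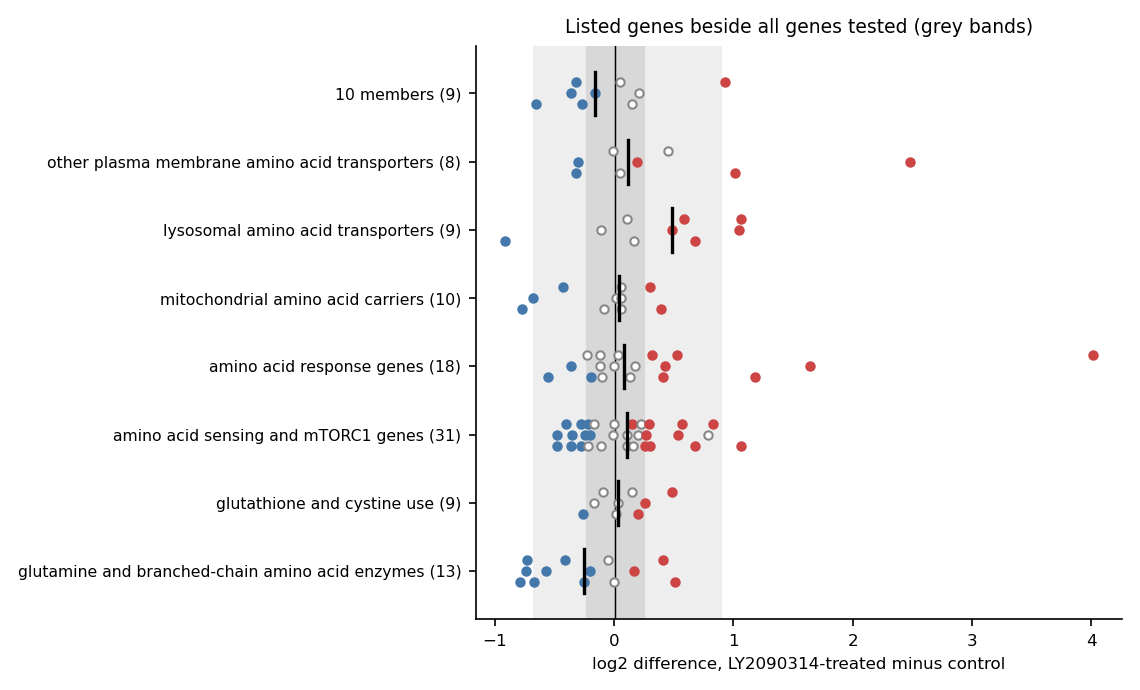
Log2 difference (LY2090314-treated minus control) of every tested gene of each list, with the number tested in brackets. Points are red where called higher, blue where called lower and open where not called, the black bar is the median of the list, and the grey bands run from the 25th to the 75th and from the 5th to the 95th percentile of all genes tested. The median of the members lies at -0.16 and that of the lysosomal transporters at 0.49, and that of the glutamine and branched-chain amino acid enzymes at -0.25.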

How the data were processed

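Amino acid transporters were read from 1 table of RNA-seq values of cultured mouse B-ALL cells. The authors prepared stranded libraries of polyadenylated RNA, ran Salmon, STAR (GRCm38, GENCODE vM24) and DESeq2 1.30.1, per the labels and the methods of the study, and deposited rlog values, which are on a log2 scale, for 41444 genes. Which samples entered the rlog transformation and with which options is not given in the sources used here.

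Columns were matched to groups by name. Of 12 columns, 3 were matched to ERT2 control and 3 to LY2090314-treated ERT2 cells. The other 6, whose names combine Cre and LY, were not used, so the Cre-ERT2 groups are not analysed here.

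Genes with a mean of at least 3 over the 6 columns (11536) were tested with limma 3.58.1 in R 4.3.3 (lmFit, then eBayes with its trend option), and p-values were adjusted over all genes tested by the Benjamini-Hochberg method. A count test does not apply to rlog values. Symbols were matched to 41157 identifiers, with positions, lengths and overlaps from GENCODE vM21 of GRCm38, an earlier release of the authors' annotation, and promoters from RefSeq GRCm38.p6. *Slc66a4* and *Slc25a2* are not analysed here.

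Named are all members, *Myc* and *Ctnnb1*, and from each list of amino acid genes the called genes with the 3 largest rises and falls and its defining gene (*Atf4*, *Asns*, *Slc38a9*, *Mtor*, *Gclc*). One further gene of these lists is not reported here. The lysosomal genes that did not pass are also named, as are *Slc66a1*, *Bckdha*, *Dld* and some marker genes above the limit or at 0. These were chosen after their values were seen. The members and lists were chosen with earlier results of these data known. Alternatives were no trend, no lower limit, a limit of 5, median centring and quantile normalization. Treated samples with the same opening number were also counted as 1 sample, and each sample was left out. Further alternatives were an adjusted p under 0.01 and a log2 difference of at least 1, and for the level per length the longest transcript.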

Additional observations from a re-analysis of the deposited data

How the results depend on the processing

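Over 14 alternatives for each of the 9 tested members, 126 values in all, none reversed its direction, 111 stayed on the same side of the threshold, 13 lost the call and 2 gained it. With a log2 difference of at least 1 also required, 0 members and 693 genes (6.01%) were called, in place of 6 and 5778. An adjusted p under 0.01 left 5 members and 4021 genes, without *Slc3a2*. Leaving out 1 sample gave 5 to 7 members and 4741 to 6225 genes. The adjusted p (limma) ranged from 1.0e-05 to 0.00030 for *Slc43a1* and from 1.0e-05 to 0.00033 for *Slc7a1*, and reached at most 0.028 for *Slc7a5*, 0.017 for *Slc1a4* and 0.016 for *Slc7a6*. It ranged from 0.012 to 0.085 for *Slc3a2*, from 0.018 to 0.31 for *Slc1a5*, from 0.044 to 0.31 for *Slc38a2* and from 0.33 to 0.76 for *Slc38a1*, and the cause of these changes of call was not tested. Median centring and quantile normalization moved the median of all genes from 0.012 to -0.015 and -0.037. With the longest transcript, 8 of 10 members kept their place by level per length in control cells, and *Slc3a2* and *Slc38a1* changed places. No paired analysis was possible because no replicate number in the columns links a control to a treated sample. Depth is unknown, so what it limits could be stated only for *Slc7a11* and other genes with low rlog values.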

Other observations

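Glutamine and branched-chain amino acids that the transporters bring in are used by a set of enzymes, of which 13 were tested, 8 fell and 3 rose (84.6% called, beside 50.1% of all genes), with a median of -0.25. *Bcat1* and *Bcat2*, the cytosolic and mitochondrial transaminases that start the breakdown of leucine, isoleucine and valine, fell by 0.74 (11.76 ± 0.097 to 11.02 ± 0.17, SD, n = 3, adjusted p = 0.00033, limma) and 0.79 (8.91 ± 0.10 to 8.13 ± 0.15, adjusted p = 0.00031). *Bckdhb*, a subunit of the branched-chain ketoacid dehydrogenase that acts next, fell by 0.73 (adjusted p = 0.00076). *Bckdha* and *Dld*, further subunits, fell by 0.67 (adjusted p = 0.00074) and 0.20 (adjusted p = 0.013). *Dbt*, another subunit of the same complex, rose by 0.41 (adjusted p = 0.0052). *Gpt2*, a mitochondrial alanine transaminase, rose by 0.51 (adjusted p = 0.0076) and *Glul*, which encodes glutamine synthetase, by 0.17 (adjusted p = 0.020). *Bcat1*, *Bcat2*, *Bckdha* and *Glul* share exon sequence with a gene on the other strand, and *Glul* also with *Mir8114* on the same strand.

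Cystine taken up by xCT feeds the synthesis of glutathione. Of 9 tested genes of this list 3 rose and 1 fell (44.4% called, beside 50.1% of all genes tested), with a median of 0.03. *Hmox1*, a heme oxygenase, rose by 0.49 (adjusted p = 0.0053, limma), *Nfe2l2*, which encodes the transcription factor NRF2, by 0.26 (adjusted p = 0.0032) and *Gclc*, the catalytic subunit of the enzyme that starts glutathione synthesis, by 0.20 (10.69 ± 0.057 to 10.88 ± 0.087, adjusted p = 0.026). *Gss*, which encodes glutathione synthetase, fell by 0.26 (adjusted p = 0.042), and 0 genes of the list were called lower without any 1 of the 3 control samples, without treated sample 1 or without treated sample 2. *Gss* shares exon sequence with *Acss2* and other genes on the other strand.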
